A study of Mus musculus with 3 samples.

Results

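The Hedgehog pathway was described through 9 genes, given by symbol: the ligands Shh, Ihh and Dhh, the receptor Ptch1, the signal transducer Smo, the transcription factors Gli1, Gli2 and Gli3, and the ligand-binding inhibitor Hhip. All 9 were found among the 24346 gene symbols listed. The data were polyadenylated RNA of distal colon from wild-type (WT) mice of 8 weeks, strain label JAX, treatment label steady-state. All 3 labelled libraries belong to that 1 group, so no condition, treatment or genotype was compared. Nothing in the labels ties the replicates to separate mice, and the names of the 3 files share 1 index and 1 lane and differ only in a running number.

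In this pathway a Hedgehog ligand binds Ptch1 on a neighbouring cell, which releases Smo from inhibition, and Smo then acts at the primary cilium to turn the Gli proteins into activators of transcription. Ptch1, Gli1 and Hhip are themselves genes that the signal switches on, and Ptch1 and Hhip in turn limit the ligand. In the gut the ligands Ihh and Shh are known as products of the epithelium, and the receptor and the Gli factors as genes of the stroma and smooth muscle beneath it. Dhh is known from Schwann cells and endothelium. In whole tissue, fewer cells of a type and less RNA per cell cannot be told apart.

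Among the 9 genes, Ihh stood highest at 29.4 ± 3.19 FPKM (SD, n = 3 files), and it was the only ligand above the detection limit. FPKM count fragments relative to transcript length and library depth, so levels can be set side by side per length. Smo followed at 8.52 ± 0.677 FPKM, Hhip at 4.55 ± 0.296 FPKM and Ptch1 at 2.95 ± 0.487 FPKM. The Gli factors lay near or under 1 FPKM, Shh rested on 1 fragment, and Dhh was listed at 0 in every file.

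By the width of the authors' bounds, replicates 1, 2 and 3 held 3.78e+06, 3.79e+06 and 1.24e+06 mapped fragments. Each of the 9 genes is listed with 1 isoform, so fragments could be estimated directly, and 19 of the 22 member values above 0 lay within 0.05 of a whole number of fragments. Over all genes averaging at least 1 FPKM, a chi-square test against sampling noise with Benjamini-Hochberg adjustment called 37 of 12629 genes different between the files (0.293%), and the median ratio of the variance between files to the sampling variance was 0.707, where sampling alone gives 0.693. The 3 files were therefore counted as 1 sample. Each ± is a measurement error of that sample with no spread between animals, and intervals and limits cover counting error only. Markers of the main cell types of the tissue were also read. All 7 epithelial, 7 fibroblast and 6 smooth muscle markers reached 1 FPKM in every file, against 48.5% of all genes listed. In that order, the summed levels of these markers were 3734 to 3798, 447 to 455 and 2624 to 2724 FPKM. Which segment of the gut the RNA came from was not tested.

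The stretches just upstream of the transcription start are shown for the ligand that was read, Ihh, the ligand that was not, Dhh, and the target and inhibitor Hhip. Each is the 250 bases before the start in RefSeq (GRCm38.p6), 5′ to 3′ on the gene's own strand, with CpG dinucleotides in capitals. They lie on the minus strand at chr1:74951673-74951922 (Ihh), chr15:98898541-98898790 (Dhh) and chr8:80058009-80058258 (Hhip).
Ihh: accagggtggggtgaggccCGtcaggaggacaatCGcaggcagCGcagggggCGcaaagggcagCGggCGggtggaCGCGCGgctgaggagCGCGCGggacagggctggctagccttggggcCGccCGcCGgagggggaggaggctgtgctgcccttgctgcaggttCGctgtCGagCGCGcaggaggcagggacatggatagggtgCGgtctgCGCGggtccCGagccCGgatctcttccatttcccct
Dhh: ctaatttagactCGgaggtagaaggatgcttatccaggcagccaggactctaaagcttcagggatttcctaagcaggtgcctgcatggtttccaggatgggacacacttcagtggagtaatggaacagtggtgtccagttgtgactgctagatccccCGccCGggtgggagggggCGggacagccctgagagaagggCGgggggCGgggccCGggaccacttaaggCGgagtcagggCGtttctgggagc
Hhip: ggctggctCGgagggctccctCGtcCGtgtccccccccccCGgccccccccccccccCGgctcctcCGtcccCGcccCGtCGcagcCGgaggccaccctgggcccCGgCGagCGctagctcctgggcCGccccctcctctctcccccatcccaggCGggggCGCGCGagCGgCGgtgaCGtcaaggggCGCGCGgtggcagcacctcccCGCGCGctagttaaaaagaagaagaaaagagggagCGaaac

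The Ihh stretch held 24 CpG dinucleotides and the Hhip stretch 28, against 9 in that of Dhh and a median of 6 over 32851 RefSeq promoters of the same length. Of the member stretches not printed, that of Ptch1 held 41, Gli3 34, Gli2 22 and Smo 15. The order of these counts is not the order of the levels: Smo, at 8.52 FPKM, held fewer than Gli2, at 0.568 FPKM. The start of the Ihh isoform in the files lies 21 bases from the transcript start that this window was taken from, and those of Dhh and Hhip coincide with theirs. For Ptch1 the distance is 215 bases, and for Smo, Gli2 and Gli3 it is 0. The Ptch1 window is thus not the stretch just before the isoform whose level is given. The Gli binding motif GACCACCCA, searched on both strands, was in none of the 7 member stretches held in the table (Ihh, Dhh, Ptch1, Smo, Gli2, Gli3 and Hhip) and in 0.225% of all promoters. This says only that these letters are absent from this window.

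Ihh, Indian hedgehog, the ligand of differentiated intestinal epithelium (chromosome 1, 74945318 to 74951651, GRCm38), stood at 26.1 FPKM in replicate 1, 29.8 in replicate 2 and 32.4 in replicate 3. The authors' deposited bounds were 22.6 to 29.6, 26.0 to 33.5 and 25.6 to 39.2 FPKM, which overlap. Pooled over the files, 573.6 estimated fragments gave 28.6 FPKM with an exact Poisson 95% interval of 26.3 to 31.0. The mean level was higher than or equal to that of 90.7% of all genes listed. Set against the summed level of the 7 epithelial markers, Ihh came to 0.780% ± 0.0779 (SD, n = 3 files).

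Shh, Sonic hedgehog, a ligand of the early gut epithelium and the crypt base (chromosome 5, 28456840 to 28467101), was at 0.106 FPKM in replicate 1 and listed at 0 in replicates 2 and 3. That value is 0.999 estimated fragments, under the 0.136 FPKM that 3 fragments over the files would make. Ihh over Shh came to 630.4 on the pooled values, with a counting interval (Clopper-Pearson) of 113 to 25029. The width of that interval comes from the single Shh fragment. Dhh, Desert hedgehog (chromosome 15, 98893027 to 98898540), was listed at 0 in all files, where the limit was 0.155 FPKM. Taking the lower end of its interval, Ihh was at least 169.9-fold higher than that limit of 3 fragments over the files together. Of 7 markers of glia and Schwann cells, 5 reached a mean of 1 FPKM, as did all 5 endothelial markers, against 51.9% of all genes listed. The summed levels were 21.9 to 23.0 FPKM and 18.9 to 19.97 FPKM, so markers of the cell types known for Dhh were read at a low level.

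**Figure D1:**
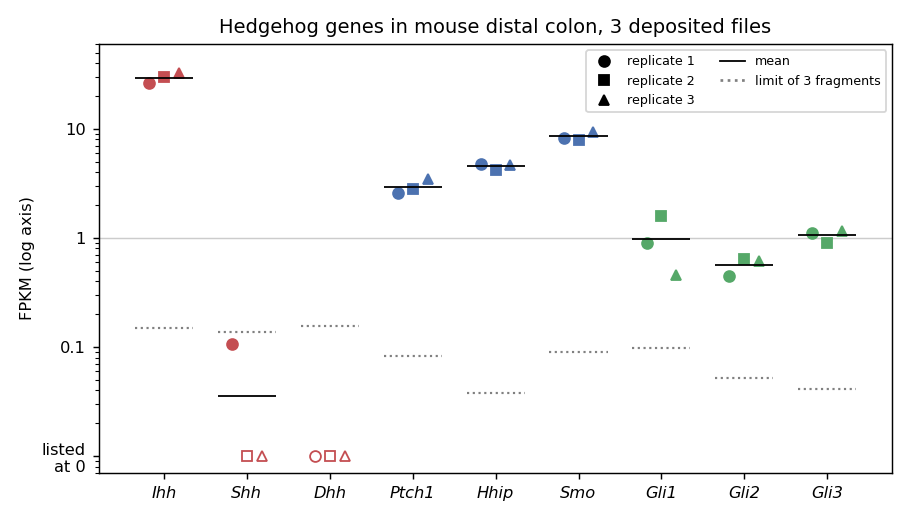
FPKM of the 9 Hedgehog genes in each of the 3 files (log axis), with ligands in red, receptor-side genes in blue and Gli factors in green. Black bars are means and dotted bars the FPKM of 3 fragments over the files. Ihh lies between 26.1 and 32.4 FPKM, above every other member, and Shh and Dhh lie under their limits.

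Ptch1, the Hedgehog receptor and itself a target of the signal (chromosome 13, 63511533 to 63565520), stood at 2.55, 2.81 and 3.49 FPKM in replicates 1, 2 and 3, or 102 estimated fragments in all. Its pooled level was 2.80 FPKM with a 95% interval of 2.28 to 3.39. Hhip, a membrane protein that binds ligand and is likewise a target (chromosome 8, 79965851 to 80058008), stood at 4.75, 4.21 and 4.69 FPKM, all above the highest Ptch1 value. Hhip over Ptch1 was 1.61, with a counting interval of 1.29 to 2.03. Smo, the transducer that Ptch1 holds in check (chromosome 6, 29735497 to 29761366), stood at 8.32, 7.97 and 9.28 FPKM. It was above Hhip and Ptch1 in every file, and Smo over Ptch1 was 2.97 (2.36 to 3.76).

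Gli1, the activator whose own transcription is a standard readout of the signal (chromosome 10, 127329882 to 127341579), stood at 0.907 FPKM in replicate 1, 1.59 in replicate 2 and 0.460 in replicate 3. These values rest on 12.0, 21.0 and 2.00 estimated fragments, and the file of least depth gave the lowest value. The pooled level was 1.14 FPKM with an interval of 0.791 to 1.58. Gli2, the main activator at the start of the response (chromosome 1, 118834061 to 119053619), stood at 0.445, 0.646 and 0.614 FPKM, under 1 FPKM in every file. Gli3, which acts mostly as a repressor (chromosome 13, 15463723 to 15730025), stood at 1.12, 0.895 and 1.17 FPKM, and its lowest file was above the highest of Gli2. Gli3 over Gli2 was 1.86 (1.21 to 2.90).

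Gli1 and Gli3 could not be ordered. Gli3 over Gli1 was 0.907 on the pooled values, with an interval of 0.600 to 1.40 that spans equality. The mean log2 ratio over the files was 0.27 ± 1.09 (SD, n = 3 files), and -0.26 without replicate 3. Gli1 over Gli2 was 2.05 (1.23 to 3.41) on the pooled values, yet in replicate 3 Gli1 was the lower.

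From highest to lowest by pooled level the order was Ihh, Smo, Hhip, Ptch1, Gli1, Gli3, Gli2, Shh and Dhh. The values of neighbours in this order overlapped between files for Gli1 with Gli3 and for Shh with Dhh. For the other 6 neighbouring pairs the file values did not overlap and the counting interval of the ratio lay above 1. Ihh over Smo was 3.44 (2.98 to 3.98), and Ptch1 over Gli1 was 2.46 (1.66 to 3.73).

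**Figure D2:**
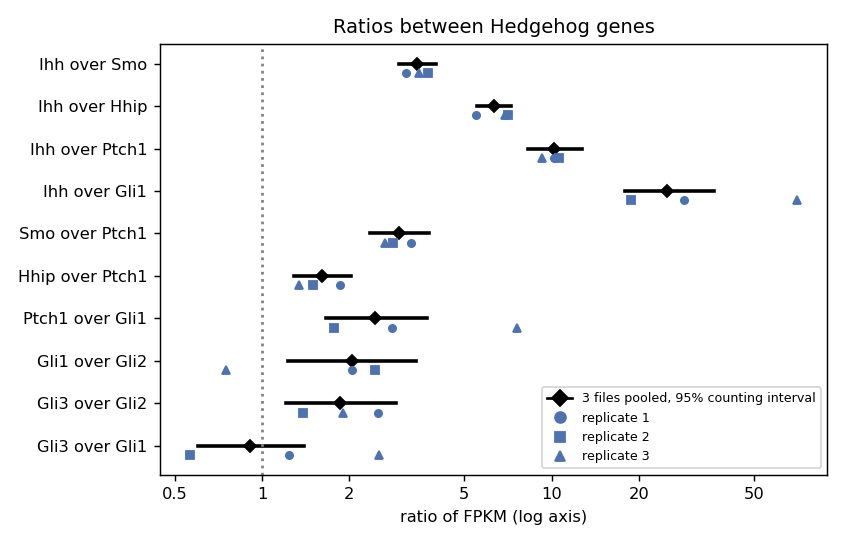
Ratios of FPKM between pairs of Hedgehog genes (log axis). Diamonds and bars are the 3 files pooled with the 95% counting interval, and blue marks the single files. The interval of Gli3 over Gli1 spans equality, while Ihh over Ptch1 lies at 10.2, between 8.27 and 12.7.

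A count of members past a level did not set the pathway apart. A mean of 1 FPKM or more was reached by 5 of the 9 members, Ihh, Smo, Hhip, Ptch1 and Gli3, against 51.9% of all genes listed. In every file 4 of 9 reached it, without Gli3, against 48.5%. The median of the members was 1.06 FPKM and that of all genes 1.25 FPKM. Of the 5 members tested between files none was called, against 0.293% of all genes, and their variance ratios ran from 0.384 to 1.81. With no filter on low values 8 members were tested, Gli1, Gli2 and Shh among them, and again none was called, against 0.234% of all genes. Shh, with 1 fragment in all, could not have been called after adjustment wherever that fragment fell. At an unadjusted p under 0.05 no member passed with or without the filter, against 5.76% and 5.79% of all genes.

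**Figure D3:**
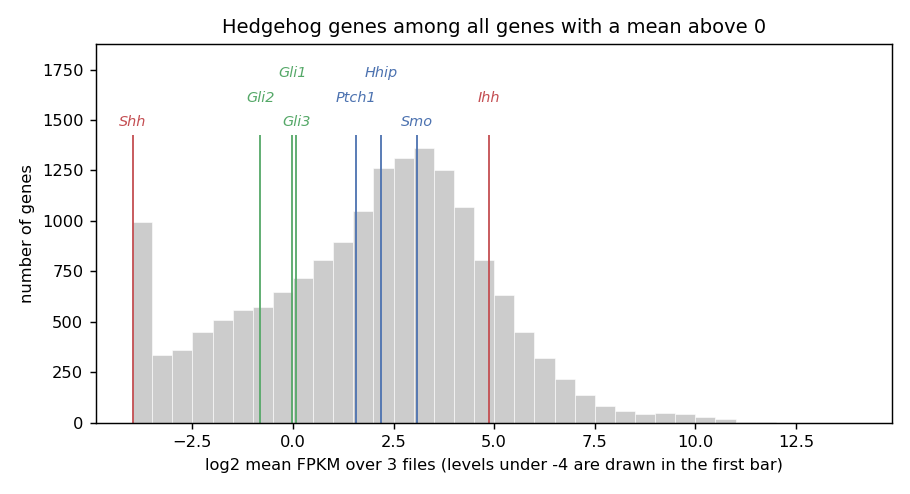
Number of genes by log2 mean FPKM over the 3 files, for all genes with a mean above 0, with the Hedgehog genes marked. Ihh lies in the upper range at 29.4 FPKM, and Gli1, Gli2 and Gli3 lie at 0.984, 0.568 and 1.06 FPKM, left of the peak of the distribution.

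The comparison of epithelial ligands with stromal genes set the sum of Shh and Ihh against the sum of Ptch1, Smo, Gli1, Gli2, Gli3 and Hhip. The ligand sum was 26.2 FPKM in replicate 1, 29.8 in replicate 2 and 32.4 in replicate 3. The stromal sum was 18.1, 18.1 and 19.7 FPKM. The ligand sum was the larger in all 3 files, by 1.45, 1.64 and 1.65 times, or 0.66 ± 0.11 on the log2 scale (SD, n = 3 files). Almost all of the ligand sum (99.9%) was Ihh, and the largest part of the stromal sum (45.7%) was Smo.

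Against single genes the ratio is larger by construction, since each gene is a part of the stromal sum. Ihh over Ptch1 was 10.2 (8.27 to 12.7), and the files gave 10.2, 10.6 and 9.28. Over Hhip it was 6.34 (5.54 to 7.26). Over Gli1 it was 25.2 (17.9 to 36.5), where the files gave 28.8, 18.8 and 70.6, the last from the file with 2.00 estimated Gli1 fragments. The 3 targets Ptch1, Gli1 and Hhip together came to 8.49 ± 0.241 FPKM, and the 3 Gli factors to 2.61 ± 0.459 FPKM.

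The stromal genes were also set against markers of the cells they are known from. As a share of the summed fibroblast markers, Smo came to 1.89% ± 0.132, Hhip to 1.01% ± 0.0607, Ptch1 to 0.655% ± 0.102 and Gli1 to 0.219% ± 0.128 (SD, n = 3 files). As a share of the smooth muscle markers, the same 4 genes came to 0.318%, 0.170%, 0.110% and 0.0365%. Which cells the RNA came from was not tested.

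**Figure D4:**
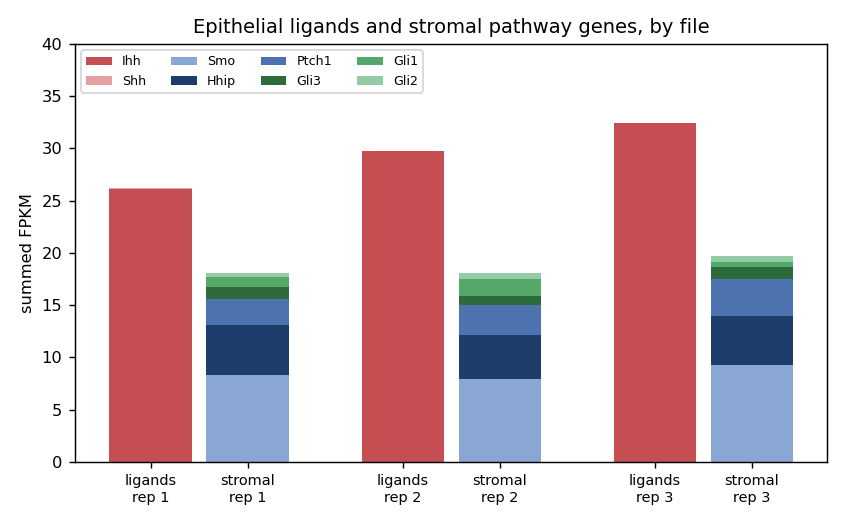
Summed FPKM of the epithelial ligands (Ihh and Shh) and of 6 stromal pathway genes in each file, stacked by gene. The ligand bar, nearly all Ihh, is taller than the stromal bar in all 3 files (26.2 against 18.1, 29.8 against 18.1 and 32.4 against 19.7 FPKM).

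Around these 9 genes, others of the pathway were described by role. Of 10 genes that make, release or bind the ligand, 8 had a mean of 1 FPKM or more, against 51.9% of all genes (median 1.89 FPKM, against 1.25 FPKM). The glypican Gpc4, a cell surface heparan sulfate proteoglycan, was highest at 42.4 ± 2.59 FPKM, and Gpc3, a glypican that can compete for ligand, stood at 5.18 ± 1.15 FPKM. Disp1, which releases lipid-bearing ligand from the cell, stood at 2.43 ± 0.811 FPKM, and Scube2, a secreted carrier of ligand, at 2.42 ± 0.865 FPKM. Ptchd2 (also called Disp3) and Scube3 were under 1 FPKM in every file, at 0.0624 ± 0.0541 and 0.0625 ± 0.0542 FPKM.

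Co-receptors were present beside Ptch1. Gas1, a co-receptor anchored in the membrane by a lipid, stood at 12.1 ± 0.767 FPKM, Cdon at 6.21 ± 1.14 FPKM and Boc at 3.45 ± 0.196 FPKM, the last 2 being related proteins of the immunoglobulin superfamily. Of the 4 genes described from this list 3 reached 1 FPKM in every file, against 48.5% of all genes. The exception was Lrp2, an endocytic receptor of absorbing epithelia. Lrp2 was listed at 0 in every file, and 3 fragments would make 0.0223 FPKM.

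Of 20 intracellular regulators, 17 had a mean of 1 FPKM or more, against 51.9% of all genes (median 4.65 FPKM, against 1.25 FPKM). The highest were a kinase, subunits of a kinase and a ligase adaptor, all of general use in the cell. Casein kinase Csnk1a1 stood at 88.0 ± 1.94 FPKM and Spop, an adaptor for Gli breakdown, at 48.5 ± 1.88 FPKM. The protein kinase A subunits Prkar1a and Prkacb stood at 55.01 ± 3.06 and 35.2 ± 2.00 FPKM. The regulators more particular to Hedgehog signalling were lower. Kif7, the cilium-tip kinesin, stood at 0.669 ± 0.275 FPKM, Gpr161, a ciliary receptor that restrains the pathway, at 0.248 ± 0.227 FPKM, and the kinase Stk36 at 0.192 ± 0.0595 FPKM, all under 1 FPKM in every file. Sufu, the inhibitor that binds Gli proteins, stood at 2.46 ± 0.306 FPKM and was named after its value had been seen.

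Of 14 genes of the primary cilium, 11 had a mean of 1 FPKM or more, against 51.9% of all genes (median 2.43 FPKM, against 1.25 FPKM). The phosphatase Inpp5e was highest at 8.27 ± 0.443 FPKM, followed by the small GTPase Arl13b at 4.90 ± 0.598 FPKM and the transport proteins Ift88 at 4.44 ± 1.17 FPKM and Ift172 at 4.28 ± 0.788 FPKM. The retrograde motor Dync2h1 stood at 0.526 ± 0.0673 FPKM, under 1 FPKM in every file.

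All 11 stromal genes known to respond to Hedgehog reached 1 FPKM in every file (median 6.59 FPKM, against 48.5% of all genes and a median of 1.25 FPKM). Bmp2 and Bmp4, bone morphogenetic proteins, stood at 43.9 ± 2.69 and 19.3 ± 1.2 FPKM, and the cyclins Ccnd2 and Ccnd1 at 41.8 ± 1.57 and 17.3 ± 1.66 FPKM. The forkhead factors of the gut stroma, named after their values had been seen, were Foxf1 at 15.9 ± 0.946 FPKM, Foxf2 at 6.59 ± 0.421 FPKM and Foxl1 at 1.78 ± 0.741 FPKM. Foxf1 stood above Smo, Hhip and Ptch1 in every file. Several of these genes, the cyclins and Bmp2 among them, are also known from epithelium, and without a contrast in Hedgehog signal their levels say nothing about a response.

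**Figure D5:**
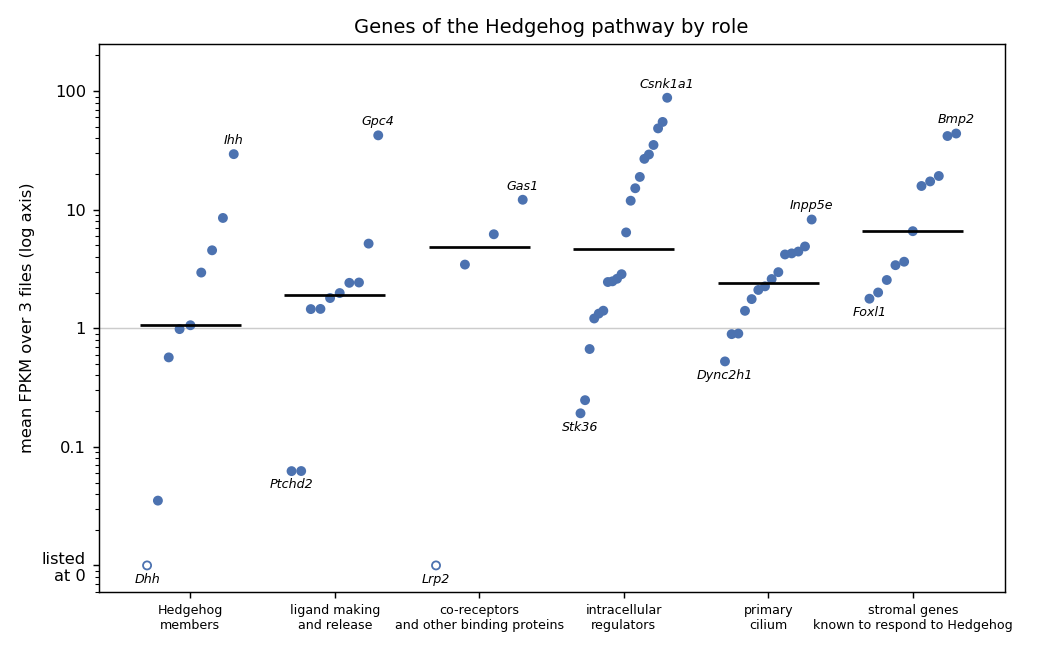
Mean FPKM over the 3 files (log axis) of each gene, by role in the Hedgehog pathway, with the highest and lowest gene of each list named and the median as a bar. Open circles are genes listed at 0. The Hedgehog members have the lowest median (1.06 FPKM) of the 6 lists shown, and the list of responding stromal genes has all 11 members above 1 FPKM.

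Some levels carry an uncertainty of annotation. The isoforms listed for Ptch1 and Dhh span less than their RefSeq genes (GRCm38). RefSeq gives 63508328 to 63573460 for Ptch1, against 63511533 to 63565520 as listed. For Dhh it gives 98881615 to 98898562, against 98893027 to 98898540. Both genes lie on the minus strand, so the lower position is the 3′ end. Their levels, and the ratios to Ptch1, hold for the listed isoforms only. RNA outside these isoforms was not tested. Transcripts of Ihh, Ptch1 and Gli2 had no match of 100 bases or more at 97% identity to a transcript of another gene in GENCODE M21. Those of Shh, Dhh, Smo, Gli1, Gli3 and Hhip had one, and in all of these but Smo it was with a gene that overlaps them, such as antisense transcripts for Shh, Dhh and Gli1 and the gene Rhebl1 for Dhh. Whether the counting used strand is not given, so reads of these members and of partners on the opposite strand cannot be told apart where they overlap. Rhebl1 lies on the same strand as Dhh, so strand would not separate them. The match of Smo, Gm4066, does not overlap Smo.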

How the data were processed

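Illumina TruSeq libraries were made from TRIzol extracts, per the labels' protocols. Per the submitters' processing notes the tools were Cufflinks 2.2.1, TopHat2 2.1.1 and Bowtie2 2.3.4.3; settings are not stated there. The authors deposited, per the file headers, FPKM per isoform with 95% bounds and the read coverage, a signal not scaled to the library. The notes name GRCm39, but positions in the files match GRCm38: 61.4% of 23143 symbols share the start base with RefSeq genes of GRCm38.p6. Positions count from 1.

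FPKM were summed per symbol. In single-isoform genes over 800 bases, the squared ratio of FPKM to its standard error (the upper bound less FPKM, as 2 errors) was taken as fragments. Of values up to 30, 64.1% to 64.3% lay within 0.01 of a whole number, and the Theil-Sen line of these fragments per FPKM on length gave the depth and a length of 165.5 bases to take off. Median coverage per FPKM gave 33.0% of the depth of replicate 1 for replicate 3, and the bounds 32.9%. Limits are 3 fragments over the 3 files. The members and lists were chosen with earlier results of these data known. The rule for named genes took all members and, per pathway list, the 4 highest, up to 3 under 1 FPKM in every file and any at 0, and marker lists are given by counts and sums. Of the listed genes, 1 is not reported here. Disp3 and Grk2 were read as Ptchd2 and Adrbk1. Between-file calls used a chi-square test on all genes of 1 FPKM or more, tested on simulated data. Copies were sought with BLAST+ 2.17.0. Alternatives covered thresholds, pseudocounts, isoforms, TPM, depth weights, filters and each replicate left out. Software was SciPy 1.17.1, pandas 2.3.3, numpy 2.4.6 and matplotlib 3.10.9 under Python 3.11.15.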

Additional observations from a re-analysis of the deposited data

How the results depend on the processing

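Ihh stayed the highest member and the ligand sum above the stromal sum under every alternative run on these levels. The log2 ratio of these sums, 0.66, was 0.78 with members under 1 FPKM left out, 3.798 against the median of the stromal genes in place of their sum, and 0.63 to 0.72 with 1 replicate left out. A median of the stromal genes is below their sum by construction, so that value had to rise. With a pseudocount of 1, the log2 ratio of Ihh over Shh, averaged over the files, moved from 7.85 (pseudocount 0.1) to 4.87, that of the ligand sum over Gli1 from 5.07 to 3.98 and that of Ptch1 over Smo from -1.54 to -1.27. The direction of Gli3 over Gli1 was not stable: 0.27 became -0.14 with depth-weighted means, and -0.26 to 0.82 with 1 replicate left out. Without a pseudocount this average of Ihh over Shh has no value, since 2 files list Shh at 0; the ratio of 630.4 is of pooled levels. With members under 1 FPKM left out neither it nor the ratios to Gli1 have one. The number of members at 1 FPKM, 5 by the mean, was 4 in every file and 5 to 6 with 1 replicate left out, and it was 7 at 0.5 FPKM or in TPM and 4 at 2 FPKM. TPM raised every level above 0 (Ihh to 68.9). No paired analysis was possible because there is 1 group.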

Other observations

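Markers of tissues near the distal colon were mostly at or near 0. Of 6 markers of squamous epithelium, none reached a mean of 1 FPKM, against 51.9% of all genes listed. Krt13, Krt4, Trp63 and Dsg3 were at 0 in every file, where 3 fragments would make 0.296, 0.173, 0.220 and 0.0864 FPKM. Krt14 stood at 0.650 ± 0.202 FPKM (SD, n = 3 files) and Krt5 at 0.132 ± 0.229 FPKM, the latter from 1 file. Of 4 urothelial markers, Upk2 and Upk3a were at 0 in every file, where 3 fragments would make 0.481 and 0.362 FPKM, and Upk1b stood at 0.332 ± 0.168 FPKM. Upk1a, a uroplakin of the tetraspanin family, stood apart at 8.78, 8.55 and 10.5 FPKM in replicates 1, 2 and 3, close to the level of Smo. None of 4 mesothelial markers reached 1 FPKM, and Lrrn4 was at 0 in every file.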
